A study of Mus musculus with 12 samples.

Results

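The enzymes of histidine breakdown were taken as the 4 genes Hal, Uroc1, Amdhd1 and Ftcd, chosen by symbol in pathway order. All 4 were found among the 24475 genes of the table, and all 4 were expressed well above the filter on low values. Liver RNA with a poly(A) tail, from mice that had been fed, was sequenced in 12 libraries. Of these, 6 were labelled WT and 6 were labelled Gcg KO, the design text giving the latter genotype as Gcg-/-. Gcg encodes the glucagon precursor, from which other hormones such as GLP-1 are also made, so the knockout removes their source too. The study is titled as one of glucagon and liver zonation, and the comparison asks what the loss of Gcg does to liver expression. The sources used here do not give the strain, sex, age or construction of the allele. Nor do they state whether each library is a different animal, and p-values then measure only the spread among libraries, part of which could be technical.

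Histidine leaves the amino acid pool in the liver along a linear route. Hal, histidine ammonia-lyase (histidase), removes ammonia from histidine to give urocanate. Uroc1, urocanate hydratase, turns urocanate into imidazolonepropionate, and Amdhd1, imidazolonepropionase, opens its ring to give formiminoglutamate. Ftcd, formimidoyltransferase cyclodeaminase, passes the formimino group to tetrahydrofolate, which leaves glutamate, and then releases its nitrogen as ammonia. The route therefore feeds glutamate, ammonia and the folate one-carbon pool together. Hepatic histidase is known as a periportal enzyme that responds to dietary protein, glucagon and glucocorticoids.

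In GRCm38, Hal (Entrez 15109) lies on chromosome 10 from 93488768 to 93516761 and Amdhd1 (Entrez 71761) on the same chromosome from 93523338 to 93540111. These neighbours point towards each other, Hal on the plus strand and Amdhd1 on the minus strand, with 6576 bases between their ends. Ftcd (Entrez 14317) is also on chromosome 10, from 76575648 to 76590338. Uroc1 (Entrez 243537) is on chromosome 6, from 90333239 to 90364551. Each gene is protein coding. The bases before their starts are shown because the 4 genes were all lower in Gcg KO and a reader may want to compare their promoters. They are read 5′ to 3′ on the strand of the gene, from RefSeq's GRCm38.p6 table, and stop before the outermost annotated start. The Hal stretch is chr10:93488518-93488767, Uroc1 chr6:90333039-90333238, Amdhd1 chr10:93540112-93540283 (minus strand) and Ftcd chr10:76575398-76575647. Capitals mark a match to a motif that was searched.
Hal: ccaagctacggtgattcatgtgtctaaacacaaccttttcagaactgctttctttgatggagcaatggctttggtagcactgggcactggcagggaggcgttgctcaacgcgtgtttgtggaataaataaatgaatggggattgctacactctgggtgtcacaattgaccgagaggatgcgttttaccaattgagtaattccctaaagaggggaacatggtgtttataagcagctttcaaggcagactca
Uroc1: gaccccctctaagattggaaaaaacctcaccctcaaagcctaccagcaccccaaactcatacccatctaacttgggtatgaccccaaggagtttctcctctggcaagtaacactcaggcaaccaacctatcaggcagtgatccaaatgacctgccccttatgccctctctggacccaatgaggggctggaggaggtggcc
Amdhd1: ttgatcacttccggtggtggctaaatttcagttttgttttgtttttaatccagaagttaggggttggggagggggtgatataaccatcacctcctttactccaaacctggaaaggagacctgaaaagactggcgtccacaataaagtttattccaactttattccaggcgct
Ftcd: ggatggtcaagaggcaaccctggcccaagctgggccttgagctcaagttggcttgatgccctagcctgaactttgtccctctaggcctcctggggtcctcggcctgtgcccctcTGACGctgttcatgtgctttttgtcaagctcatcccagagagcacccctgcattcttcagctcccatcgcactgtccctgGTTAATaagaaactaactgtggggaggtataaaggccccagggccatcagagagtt

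Motifs were searched on both strands of the 250 bases before the table's start. The printed stretches of Uroc1 (200 bases) and Amdhd1 (172 bases) are shorter, so part of what was searched is not printed. TGACG, the core letters of the cAMP response element (CRE), was found in Ftcd, from 136 to 132 bases before the start, and in none of the other members. Of 32851 promoters of the same length, 17.8% held these letters. GTTAAT, the letters of 1 arm of an HNF1 site, was found in Ftcd from 56 to 51 bases before the start, and 6.43% of promoters held it. The full CRE palindrome TGACGTCA (1.55% of promoters), the glucocorticoid receptor arm AGAACA (16.1%) and TTGCNNCAA (1.74%) were found in 0 of the 4 members. The full palindrome contains the TGACG letters.

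All 4 enzymes had lower mean expression in Gcg KO livers, and 3 of the 4 passed the test. Expression is given in RPKM, a read count scaled to gene length and library size, and fold changes are Gcg KO over WT on the scale log2(RPKM + 0.5). The test was limma across the 11347 genes whose mean reached 0.5 RPKM, with Benjamini-Hochberg adjustment and a threshold of 0.05. Of all tested genes, 3.87% passed that threshold in either direction, 1.95% higher and 1.92% lower in Gcg KO, and of the 4 members 3 were lower and 0 higher. A negative fold change of any size was found in 45.7% of tested genes, with a median over all of them of 0.01, and in 4 of 4 members, with a median of -0.42. The depth was estimated from the smallest step of the values at 10300000 reads or more per library. At that depth the members had 579 to 3205 reads per kilobase in every library, a counting error of 1.77% to 4.16% per kilobase, below the spread between libraries. Of 6 hepatocyte marker genes 0 passed in limma, and 0 had p under 0.05 before adjustment. Their summed RPKM was 43341 to 57659 in WT and 43367 to 53457 in Gcg KO. Among periportal markers 2 of 5 fell (Sds and Gls2), with sums of 1838 to 2901 RPKM in WT and 1266 to 2569 in Gcg KO. Pck1 (log2 fold change -1.09, limma adjusted p = 0.407), Hsd17b13 (-0.09) and Cyp2f2 (0.10) did not pass. Pck1 and Cyp2f2, with WT means of 1113 and 962 RPKM, made up most of the mean sum. The periportal sum split by library, at 1266 to 1838 RPKM in WT 6, Gcg KO 10 and Gcg KO 12 and 2179 to 2901 RPKM in the other 9. The low end of both ranges thus comes from those 3 libraries. Among pericentral markers 3 of 5 fell (Oat, Slc1a2 and, at limma adjusted p = 0.0495, Cyp1a2), with sums of 3865 to 5007 and 3801 to 5122 RPKM. Glul went the other way without passing, at 347 ± 28.1 RPKM in WT against 445 ± 70.5 in Gcg KO (SD, limma adjusted p = 0.0722). Cyp2e1 had a log2 fold change of 0.00 and, with means of 3339 and 3338 RPKM, made up most of these sums. Of the other cell types' markers, 1 of 5 endothelial genes rose (Lyve1) and 1 of 3 red cell genes fell (Hbb-bs), with endothelial sums of 46.7 to 62.6 RPKM in WT and 52.6 to 81.7 in Gcg KO. Of 3 tested neutrophil genes 0 passed, but their list also split by library. Its sum was 1.26 to 1.96 RPKM in WT 6, Gcg KO 10 and Gcg KO 12 and 16.6 to 64.7 RPKM in the other 9. The part of these genes in the members' differences was not tested. In whole liver, fewer cells of a type and less RNA per cell cannot be told apart.

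Hal, the entry step, had the highest level of the members and the largest difference. In WT its lowest, median and highest values were 149.9, 203.1 and 221.6 RPKM, and in Gcg KO they were 106.0, 125.9 and 175.2 RPKM. Of the 6 Gcg KO libraries, 4 lay below every WT library, and 5 of the 6 WT libraries lay above every Gcg KO library. The overlap came from WT 1, the lowest WT library, which lay under Gcg KO 8 and Gcg KO 10. The mean was 198 ± 25.2 RPKM in WT against 133 ± 26.3 RPKM in Gcg KO (SD, n = 6 each), or 66.7% of WT on the fitted scale (log2 fold change -0.58 ± 0.13 SE, limma adjusted p = 0.0199). The 95% interval put Hal in Gcg KO at 55.2% to 80.5% of WT. The call was lost without WT 3 (limma adjusted p = 0.0537) and without Gcg KO 9 (limma adjusted p = 0.0505).

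Uroc1, which takes up the urocanate made by Hal, fell by a smaller step. Its WT libraries ran from 130.1 through a median of 145.8 to 158.7 RPKM, and its Gcg KO libraries from 89.9 through 115.4 to 128.3 RPKM. The groups did not overlap, and the highest Gcg KO library (Gcg KO 10) and the lowest WT library (WT 1) were only 128.3 and 130.1 RPKM. The mean was 145 ± 10.1 RPKM in WT against 114 ± 13.1 RPKM in Gcg KO (SD, n = 6 each), 1.28-fold lower (log2 fold change -0.35 ± 0.08 SE, limma adjusted p = 0.0299). Of all tested genes, 1.5% were lower in Gcg KO without overlap, and Uroc1 and Ftcd were the 2 members that were. The Uroc1 call was the least stable of the 3. Leaving out 1 library ended it for WT 2, WT 3, WT 5, WT 6, Gcg KO 7, Gcg KO 9 or Gcg KO 12, with limma adjusted p between 0.0506 and 0.0681, while the fold change stayed between -0.29 and -0.39 over all 12 omissions.

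Amdhd1, the ring-opening enzyme, did not pass. It had 80.8, 93.4 and 113.4 RPKM as lowest, median and highest value in WT, and 52.6, 69.3 and 90.0 RPKM in Gcg KO. The groups overlapped, with 4 of 6 Gcg KO libraries below every WT library, and Gcg KO 7 (84.3 RPKM) and Gcg KO 10 (90.0 RPKM) among the WT values. Means were 93.4 ± 12.1 RPKM in WT against 71.8 ± 13.7 RPKM in Gcg KO (SD, n = 6 each). The log2 fold change was -0.39 ± 0.12 SE, with a limma adjusted p of 0.114. The estimate lay between those of Uroc1 and Ftcd, with a wider 95% interval of 63.4% to 91.9% of WT. Its coefficient of variation between Gcg KO libraries was 19.0%, against 11.5% for Uroc1 and 19.8% for Hal.

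Ftcd, which hands the one-carbon unit to folate, gave the clearest separation. Its WT libraries lay at 123.8, 132.9 and 145.5 RPKM (lowest, median, highest) and its Gcg KO libraries at 84.0, 96.3 and 116.2 RPKM. Every Gcg KO library lay below every WT library. The mean was 134 ± 8.77 RPKM in WT against 98.5 ± 11.1 RPKM in Gcg KO (SD, n = 6 each), 1.36-fold lower (log2 fold change -0.44 ± 0.08 SE, limma adjusted p = 0.00488). Its p ranked 139 among the 11347 genes, where that of Hal ranked 254 and that of Uroc1 316. Ftcd kept its call in every one of the 12 omissions of a single library.

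**Figure D1:**
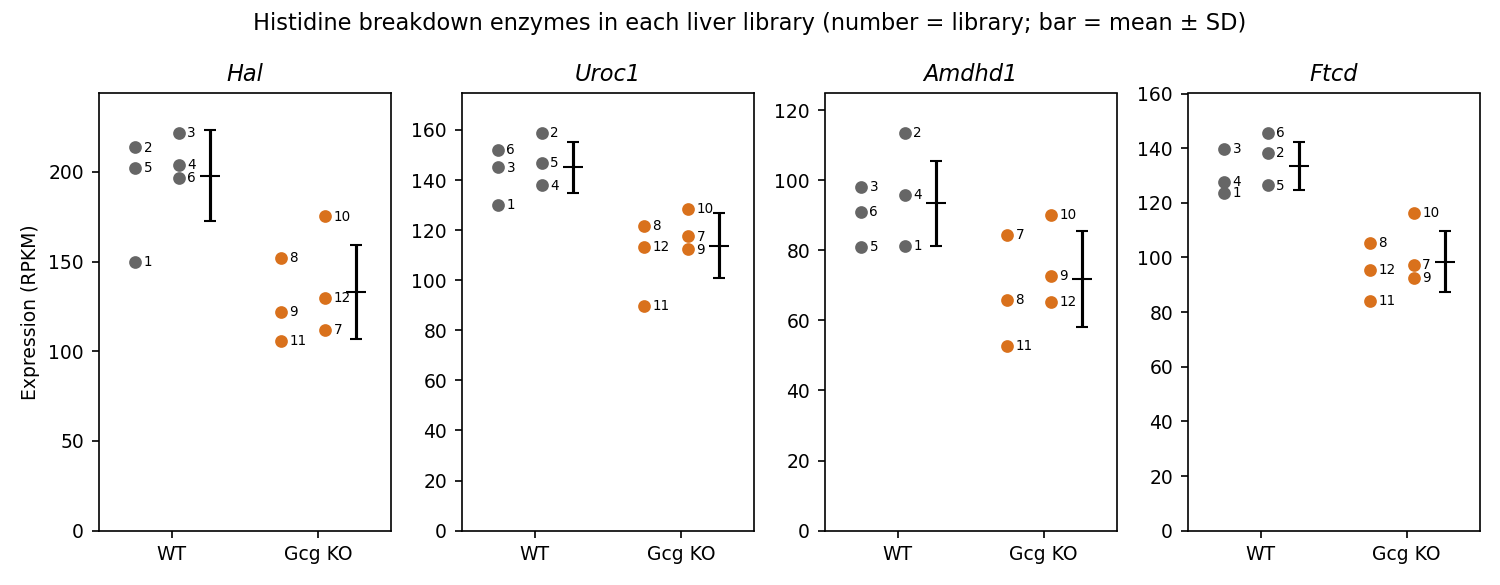
RPKM of Hal, Uroc1, Amdhd1 and Ftcd (1 panel each, y axis from 0), with WT libraries in grey, Gcg KO libraries in orange (6 each), library numbers and the group mean ± SD as a black bar. The groups are separate for Uroc1 and Ftcd, and overlap for Hal (WT 1 at 149.9 RPKM) and Amdhd1 (Gcg KO 10 at 90.0 RPKM).

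A difference in response between the enzymes was not shown. Hal had the largest fold change, so the ratio of each pair of members was set against the genotype labels in an exact permutation test (two-sided), with adjustment over the 6 pairs. The log2 ratio of Hal to Uroc1 was 0.44 ± 0.15 in WT and 0.21 ± 0.18 in Gcg KO (SD, n = 6 each), a difference of -0.23 (95% interval -0.44 to -0.02). That pair had an exact permutation p of 0.0346, which became 0.201 after adjustment. The ratio of Hal to Ftcd differed by -0.14 (interval -0.34 to 0.06) and that of Hal to Amdhd1 by -0.19 (-0.49 to 0.09), both with adjusted p = 0.25 in the exact permutation test. Uroc1 against Ftcd differed by 0.09 (-0.01 to 0.18; adjusted p = 0.201, exact permutation test). The intervals allow Hal to have fallen by up to 0.49 more than Amdhd1 on the log2 scale, so equal responses are not shown either.

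The order of the levels, which RPKM gives per length, was Hal, Uroc1, Ftcd, Amdhd1 in both groups. In WT each gene exceeded the next in 6 of 6 libraries, and the mean of Hal was 1.36 times that of Uroc1. In Gcg KO Hal exceeded Uroc1 in 5 of 6 libraries and by 1.17 times on average. The exception was Gcg KO 7, with Hal at 112.1 and Uroc1 at 117.5 RPKM, and the SDs of these genes overlapped in Gcg KO. Uroc1 and Ftcd were close in level, 1.09 times apart in WT and 1.16 times in Gcg KO, yet Uroc1 was the higher in all 12 libraries. Among all tested genes, Hal ranked 375 and Amdhd1 710 by mean WT level.

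Some libraries were low or high for all 4 members, and in others the members lay apart. Relative to its own WT mean, Gcg KO 11 held every member at 53.6% to 62.9%, and it was the lowest library for all 4 genes. Gcg KO 10 was the highest Gcg KO library for all 4, at 87.0% to 96.3%. Within WT, WT 1 was the lowest library for Hal, Uroc1 and Ftcd and the second lowest for Amdhd1. The estimated depth was 14500000 reads in WT 1, 13700000 in Gcg KO 10, 11000000 in Gcg KO 11 and 10300000 in Gcg KO 12. Gcg KO 11, the lowest for all members, was thus the second shallowest of the 12 libraries, and Gcg KO 12 the shallowest. The part of depth in these levels was not tested.

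**Figure D2:**
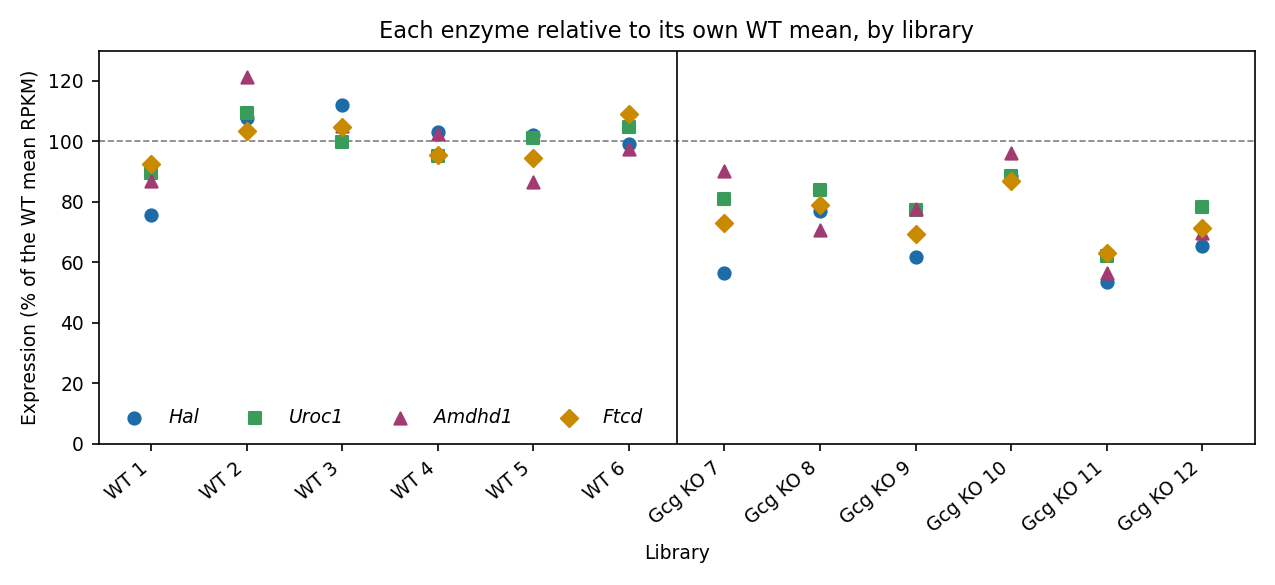
Expression of each enzyme as a percentage of its own mean RPKM in WT (y axis from 0, dashed line at 100%), for each of the 12 libraries, with 1 marker shape per gene. In Gcg KO 11 the 4 markers lie together at 53.6% to 62.9%, while in Gcg KO 7 they spread from 56.6% (Hal) to 90.2% (Amdhd1).

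Correlations between members were computed with each group centred on its own mean, over 12 libraries and 6 pairs, with 100000 permutations within groups. Uroc1 and Ftcd gave Pearson's r = 0.87 (permutation p = 0.0012, adjusted 0.0071) and Spearman's rho = 0.85 (permutation p = 0.0023, adjusted 0.014). Without Gcg KO 10 and Gcg KO 11, the libraries farthest from the median of Uroc1, r was 0.74. Hal and Ftcd gave r = 0.81 (permutation p = 0.0024, adjusted 0.0073) and rho = 0.77 (permutation p = 0.0086, adjusted 0.026), and r = 0.71 without WT 1 and Gcg KO 10. Hal and Amdhd1, the adjacent genes, gave the lowest value of the 6 pairs, r = 0.55 (permutation p = 0.10, adjusted 0.10) and rho = 0.55 (permutation p = 0.093, adjusted 0.093), and 0.29 without WT 1 and Gcg KO 10. Gcg KO 7 shows this pair apart, with Hal at 56.6% and Amdhd1 at 90.2% of the WT mean. For Amdhd1 with Uroc1 (r = 0.78, permutation p = 0.0077, adjusted 0.012; rho = 0.59, permutation p = 0.064, adjusted 0.077) and with Ftcd (r = 0.70, permutation p = 0.028, adjusted 0.033; rho = 0.64, permutation p = 0.040, adjusted 0.060), r fell to 0.47 and 0.30 without Gcg KO 10 and Gcg KO 11. In each pair the libraries left out were those farthest from the median of a single gene of the pair. Such a choice tends to lower r. The remaining libraries were also not centred again, so part of the group difference could enter these values of r. They therefore do not show how far a relation rests on the libraries left out. With each group centred again without WT 6, Gcg KO 10 and Gcg KO 12, r was 0.75 for Amdhd1 with Uroc1, 0.65 with Ftcd and 0.36 with Hal. Hal with Uroc1 gave r = 0.75 (permutation p = 0.0075, adjusted 0.012) and rho = 0.68 (permutation p = 0.026, adjusted 0.053), and r = 0.65 without WT 1 and Gcg KO 10. The libraries share depth and tissue state, so the values describe these samples.

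WT 6, Gcg KO 10 and Gcg KO 12 were known from an earlier analysis of these data to stand apart from the other 9 libraries. Igfbp1, a secreted IGF-binding protein, lay at 6.22 to 14.2 RPKM in these 3 and at 159 to 738 RPKM in the other 9. The members did not follow that split. Gcg KO 10 was the highest Gcg KO library for all 4 members, while Gcg KO 12 held them at 65.6% to 78.1% and WT 6 at 97.4% to 108.9% of the WT mean. Without the 3 libraries the log2 fold changes were -0.69 for Hal (limma adjusted p = 0.0241), -0.39 for Uroc1 (0.0708), -0.45 for Amdhd1 (0.135) and -0.47 for Ftcd (0.0113). The count of members past the threshold was then 2 of 4, beside 1.52% of 11284 tested genes lower in Gcg KO in the same fit.

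Histidine reaches hepatocytes through amino acid transporters, and one of them fell with the breakdown enzymes. Slc38a3, a sodium-coupled carrier of glutamine, asparagine and histidine in hepatocytes, had 429.7, 471.5 and 496.9 RPKM in WT (lowest, median, highest) and 205.7, 308.7 and 340.2 RPKM in Gcg KO. The groups did not overlap. Its mean fell from 468 ± 27.8 to 288 ± 56.5 RPKM (SD, n = 6 each; log2 fold change -0.73 ± 0.12 SE, limma adjusted p = 0.00336). Of 6 tested histidine transporters, Slc38a3 was the 1 that fell, 0 rose and the median log2 fold change was -0.09. Over all tested genes, 1.92% passed as lower in Gcg KO and 1.5% were lower without overlap. Slc15a4, a lysosomal peptide and histidine transporter, averaged 7.06 ± 0.949 RPKM in the WT libraries and 5.47 ± 1.06 in the Gcg KO ones (limma adjusted p = 0.171). Slc3a2, the heavy chain of the LAT carriers, had 11.9 ± 1.12 and 10.8 ± 0.445 RPKM (limma adjusted p = 0.386).

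Other fates of histidine comprise histamine, carnosine and the charging of tRNA, and 5 of the 9 listed genes were expressed enough to be tested. In limma 0 rose and 0 fell, 1 had p under 0.05 before adjustment, and the median log2 fold change was 0.11. With 3.87% of all tested genes called, 0 of 5 is no result about this list. The gene with p under 0.05 was Hnmt, which inactivates histamine by methylation, with means of 9.03 ± 1.39 RPKM (WT) against 12.1 ± 3.18 (Gcg KO) (limma adjusted p = 0.303). Cndp2, a dipeptidase that splits carnosine-like peptides, had 16.1 ± 0.784 and 17.4 ± 1.87 RPKM (limma adjusted p = 0.546). Hars2, the mitochondrial histidyl-tRNA synthetase, had 5.97 ± 0.704 and 6.57 ± 1.014 RPKM (limma adjusted p = 0.673).

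Among folate one-carbon enzymes and carriers, most genes did not pass, and the 2 that fell were Aldh1l1 and Sardh. Aldh1l1, which oxidises 10-formyltetrahydrofolate and so disposes of one-carbon units, had 437.0, 449.4 and 551.9 RPKM in WT (lowest, median, highest) and 310.3, 351.5 and 379.6 RPKM in Gcg KO. Sardh, the mitochondrial sarcosine dehydrogenase that passes a one-carbon unit to tetrahydrofolate, had 152.6, 176.8 and 182.5 RPKM in WT and 118.3, 132.3 and 147.7 RPKM in Gcg KO. Neither gene overlapped between the groups. Their log2 fold changes were -0.42 ± 0.07 SE (limma adjusted p = 0.00359) and -0.38 ± 0.07 SE (limma adjusted p = 0.00519), against -0.44 for Ftcd. Of 25 tested folate genes 2 fell, 0 rose and 23 did not pass, with a median log2 fold change of -0.01 beside 0.01 over all tested genes. Among all tested genes, 1.92% passed as lower in Gcg KO and 1.5% were lower without overlap. Gldc, glycine decarboxylase, missed the threshold at 65.5 ± 6.76 RPKM for WT against 52.4 ± 5.32 for Gcg KO (limma adjusted p = 0.0507), although its groups did not overlap. In Gcg KO 11, the lowest library for every histidine enzyme, Aldh1l1 (379.6 RPKM) and Sardh (147.7 RPKM) were at their highest Gcg KO values, while Gldc (44.2 RPKM) was at its lowest.

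Breakdown genes of other amino acids also fell, in counts that were not tested against the histidine route. These lists were chosen with earlier results of these data known. Of all tested genes, 1.92% passed as lower and 1.95% as higher in Gcg KO. In phenylalanine and tyrosine breakdown 5 of 8 tested genes fell, 0 rose and the median log2 fold change was -0.53. Hgd, homogentisate dioxygenase, fell from 321 ± 17.3 to 196 ± 9.67 RPKM (limma adjusted p = 9.5e-06). In tryptophan breakdown 4 of 7 fell, 0 rose and the median was -0.32. Kynu, kynureninase, fell from 77.1 ± 7.01 to 54.9 ± 5.59 RPKM (limma adjusted p = 0.00359), near the size of Ftcd, and Acmsd, a decarboxylase of a later step, from 10.7 ± 2.96 to 3.05 ± 0.545 RPKM (limma adjusted p = 6.1e-05). In serine, glycine and threonine breakdown 3 of 10 fell, 0 rose and the median was -0.21, and in glutamate handling 6 of 11 fell, 0 rose and the median was -0.33. Gls2, the liver glutaminase, was among these 6 (log2 fold change -2.31), far from the -0.35 to -0.58 of the members that fell.

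**Figure D3:**
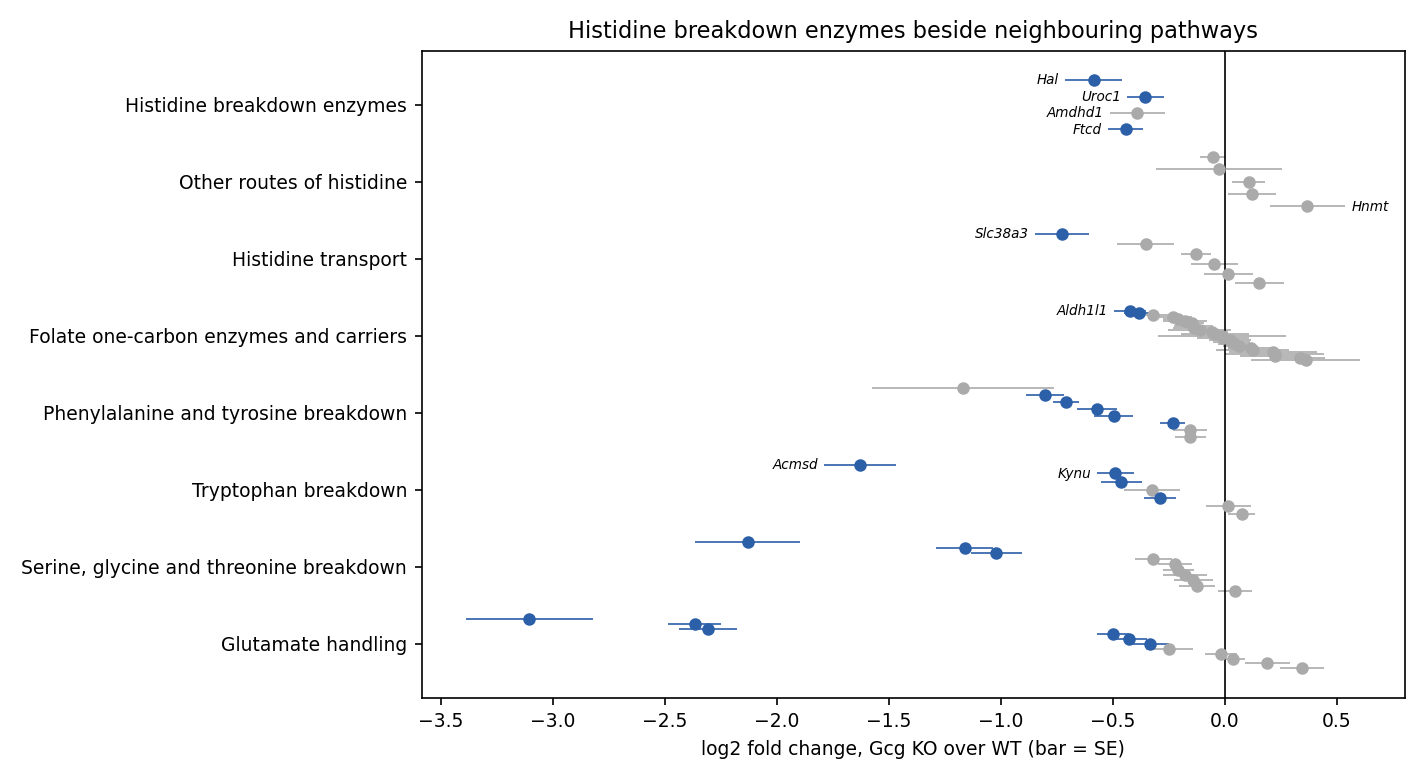
Log2 fold change (Gcg KO over WT, bar = SE) of the 4 histidine breakdown enzymes and of each tested gene of 7 related lists, 1 row per list. Blue points passed the limma threshold downwards, grey points did not pass and none passed upwards. Slc38a3 (-0.73) and Aldh1l1 (-0.42) stand among mostly grey points of their lists.

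Among the 3 nearest tested genes on each side of every member there were 18 genes that were not members, of which 1 passed limma, and it fell. Over all tested genes 3.87% passed in either direction, so this count is near the background. That gene was Aldh1l1, which lies 186 kb beyond the end of Uroc1 on chromosome 6, from 90550768 to 90599171. Klf15, a liver transcription factor whose targets include amino acid breakdown genes, lies between Uroc1 and Aldh1l1. Its mean was 75.7 ± 13.8 RPKM across WT libraries against 54.4 ± 13.04 across Gcg KO libraries (log2 fold change -0.49 ± 0.17 SE, limma adjusted p = 0.164). Klf15 was lowest of its group in WT 6 (48.9 RPKM) and in Gcg KO 12 (35.7 RPKM), and it passed without WT 6 (-0.61, limma adjusted p = 0.0436) and without the 3 libraries that stood apart (-0.39, limma adjusted p = 0.0410). Zxdc, next to Uroc1, had 2.85 ± 0.230 and 2.40 ± 0.210 RPKM (limma adjusted p = 0.165).

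On chromosome 10, Lta4h, leukotriene A4 hydrolase, lies before the start of Hal, with 14.04 ± 0.847 RPKM for WT and 14.9 ± 0.794 for Gcg KO (limma adjusted p = 0.550). Snrpf, a spliceosome protein on the far side of Amdhd1, had 3.73 ± 1.13 and 2.98 ± 0.525 RPKM (limma adjusted p = 0.534). The median WT level of the 18 neighbours was 2.37 RPKM, well below that of any member. Libraries were strand-specific per the labels' protocols, but the sources used here do not say whether counting used the strand. Hal and Amdhd1 do not overlap in the annotation.

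**Figure D4:**
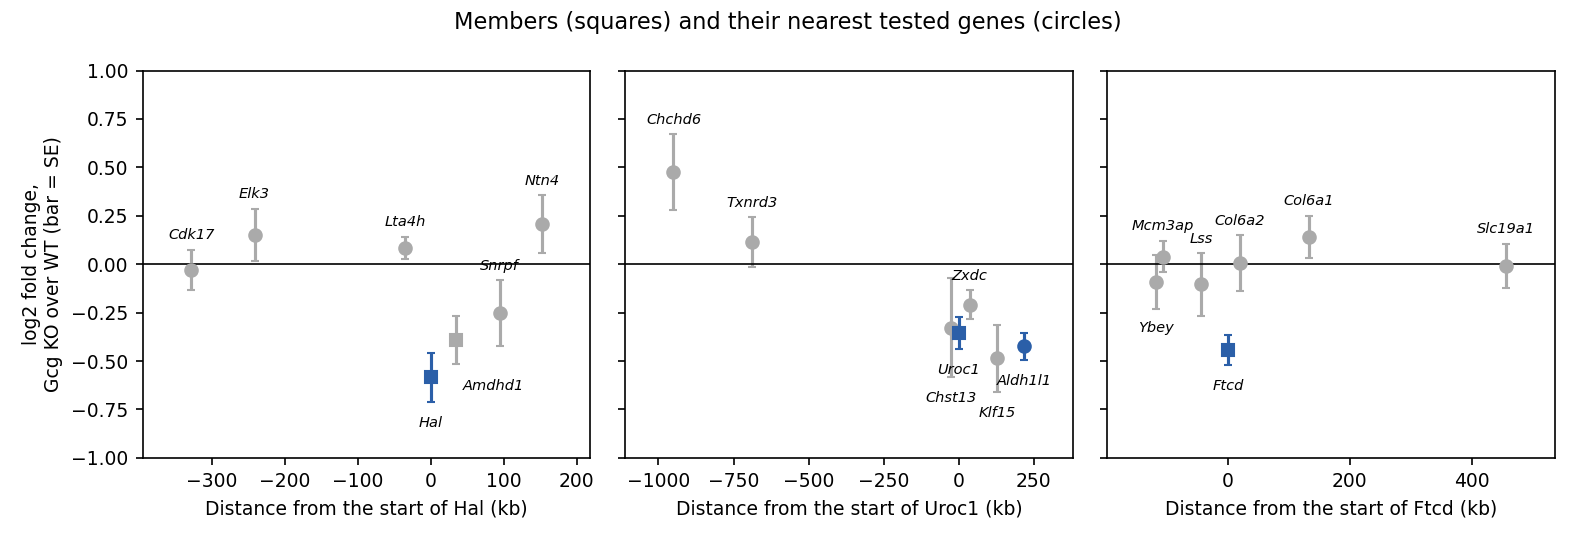
Log2 fold change (Gcg KO over WT, bar = SE) of members (squares) and of their 3 nearest tested genes on each side (circles), against the distance in kb between the lowest coordinates of the genes, for Hal with Amdhd1 among its neighbours (left), Uroc1 (middle) and Ftcd (right). Blue marks genes past the limma threshold. Hal, Uroc1 and Ftcd are blue among grey neighbours, with Aldh1l1 the other blue point.

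Genes whose library-to-library pattern was most like each member were ranked by Pearson's r of log2 values centred within each group, over the 12 libraries. For Hal the first 3 were Pcsk4 (r = 0.91), Lims2 (0.88) and Mn1 (0.86). For Uroc1 they were Sfxn5 (0.93), Shpk (0.92) and Fnip2 (0.92), and for Amdhd1 Kdm3a (0.92), Tmem38b (0.91) and Kifc2 (0.89). For Ftcd they were Cyp46a1 (0.95), Pde4c (0.94) and AI317395 (0.93). These are the highest of 10839 named genes over few libraries that share depth and state, so they are a description without a test, and none of the 12 passed limma between the groups. Over the 9 libraries without the 3 that stood apart, r of these genes was 0.85 to 0.97. By the same measure Ftcd ranked 26 of 11346 for Uroc1 and 35 for Hal, while Amdhd1 ranked 935 for Hal.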

How the data were processed

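Polyadenylated liver RNA of 6 WT and 6 Gcg KO libraries was measured. The authors deposited 1 table of RPKM values, a column per library. The unit was taken from the table's name and values. GRCm38, CASAVA 1.8.2 and FastQC appear in the submitters' processing notes. The sources used here do not give the aligner, counting tool, annotation or handling of multiply matching reads.

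The filter kept genes averaging 0.5 RPKM or more. These were tested on log2(RPKM + 0.5) in limma 3.58.1 under R 4.3.3, allowing the prior variance to follow the mean, two-sided, with Benjamini-Hochberg adjustment. Folds on this scale understate changes of low genes. Depth came from the smallest common step of RPKM times transcript length among genes with 1 RefSeq transcript, and is an estimate. Reads could not be recovered for all genes, so no count test was run. Intervals are 95%. The procedure was tested on simulated data.

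The members and lists were chosen with earlier results of these data known. Named genes were the 4 members, the up to 3 smallest p-values of each of 7 lists, the 3 genes most like each member and, where of use, genes among the 3 nearest tested on each side. Igfbp1, Lyve1, Hbb-bs, the pericentral markers Cyp1a2, Slc1a2, Glul and Cyp2e1, and the periportal markers Pck1, Hsd17b13 and Cyp2f2 were named outside this rule, after their values were seen. One gene that the rule names is not reported here. Alternatives covered pseudocount, filter, scaling, variance model and omitted libraries. Gene positions came from RefSeq (GRCm38.p6), which matched 11325 of the 11347 tested genes.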

Additional observations from a re-analysis of the deposited data

Results flagged for a closer look

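Over the named genes and member ratios, 70 groups of 6 libraries were examined for a library whose gap to the nearest other, as a share of the range, passed Dixon's 95% limit, and 9 had one. Chance gives about 1 in 20 for independent groups. The groups here share libraries and genes, so the count was not tested against that rate. Among the members the value apart was Hal in WT 1, at 149.9 RPKM with the next WT library at 196.5 RPKM. Without WT 1 the log2 fold change of Hal was -0.66 (limma adjusted p = 0.00708). Tdo2, tryptophan dioxygenase, was also apart in WT 1, at 691 RPKM with the next at 813 RPKM.

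In WT 6, Sds (serine dehydratase) stood apart at 95.9 RPKM with the next at 187 RPKM, and Klf15 at 48.9 RPKM with the next at 76.5 RPKM. In WT 5, Aldh1l1 stood apart at 551.9 RPKM with the next at 472 RPKM, and Zxdc at 2.41 RPKM with the next at 2.84 RPKM. In Gcg KO 11, which held every histidine enzyme at its lowest, Got1 (35.3 RPKM, the next at 17.6) and Oat (128 RPKM, the next at 90.6) stood apart on the high side. Gls2 stood apart in Gcg KO 10 at 53.1 RPKM, with the next at 36.3 RPKM.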

How the results depend on the processing

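All 4 members kept a negative fold change under all 23 alternatives each. The filter settings, limma without the trend and the permutation test use the same fold change, so they could not alter its sign. For Uroc1 and Ftcd, whose groups did not overlap, no omission of libraries could reverse it either. Leaving out 1 library, the log2 fold change ranged from -0.67 to -0.52 for Hal and from -0.39 to -0.29 for Uroc1, and the genes higher and lower in Gcg KO numbered 136 to 261 and 141 to 210, against 221 and 218. The lowest counts came without WT 3, and without Gcg KO 9 142 genes were higher. Uroc1 lost its call under quantile normalization (-0.30, limma adjusted p = 0.0861) and without the 3 libraries (-0.39), where 128 genes were higher and 171 lower. The exact permutation test adjusted over all genes called 0 genes, its smallest possible p being 0.00216. Its exact permutation p, adjusted, was 0.115 for Hal (-0.58) and 0.0700 for Uroc1 (-0.35) and Ftcd (-0.44), from 0.00649 for Hal and 0.00216 for the other two before adjustment. Amdhd1 did not pass under any alternative (limma or permutation adjusted p 0.0571 to 0.213). The pairwise differences in response did not pass under any of 15 alternatives, and 2 reversed in sign. Over single omissions Amdhd1 to Ftcd ranged from -0.000216 (without Gcg KO 7) to 0.10, and Uroc1 to Amdhd1 from -0.00496 (without Gcg KO 8) to 0.0793. Gldc passed under 5 of 22 alternatives, Klf15 under 2, and Tdo2 lost its call under quantile normalization and without the 3 libraries. The scaling alternatives moved the median of all genes by -0.01 to 0.00. No paired analysis was possible because the replicate numbers run from 1 to 6 and from 7 to 12 and are not shared. Depth is an estimate, and its part in the members' levels was not tested.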
